A study of Caenorhabditis elegans with 8 samples.

Results

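The transcriptome described here is that of the solvent control of a study of the insect repellent DEET in Caenorhabditis elegans, a free-living nematode. Of the 8 libraries in the series, 4 came from worms kept with 0.1% dimethyl sulfoxide (DMSO) alone for 24 hours and 4 from worms given DEET dissolved in DMSO. The 4 DMSO libraries were taken by their group label, and no value measured in them was used to choose them. Both groups were of a strain that the labels name by the cuticle collagen gene col-121. The labels give neither its allele nor the sex of the worms. Worms entered the exposure as late L4 larvae, the last larval stage, so those collected were young adults. Each library pooled 1000 whole worms, and every worm in the series received DMSO, so a level here is that of solvent-exposed animals and not of untreated ones. Each DMSO library also carries its own pair number, marked as a batch in the labels and shared with a DEET library. Within the DMSO group, library and batch thus cannot be told apart.

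A young adult hermaphrodite of C. elegans is about to fill, or has begun to fill, its uterus with embryos. Its germline has ended sperm production in the last larval stage and has turned to oocytes. The intestine makes vitellogenins, the yolk proteins that oocytes take up through the receptor encoded by rme-2. The epidermis has laid down the adult cuticle, whose main proteins are collagens made in a burst before each molt. Polyadenylated RNA of whole worms mixes all of these tissues. Fewer cells of a type and less RNA per cell cannot be told apart in such data.

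The 4 libraries held 50155299, 44437681, 48061769 and 48058381 counts in the order DMSO 1 to DMSO 4. Ribosomal RNA, which selection for polyadenylated RNA leaves behind in part, took 5.43, 3.91, 8.32 and 10.9% of the counts. It was lowest in DMSO 2 and highest in DMSO 4, and the Wilson 95% intervals of these shares, which cover counting error only, were at most 0.0176 percentage points wide. Levels are given below as TPM, the standard unit of transcript abundance, which corrects for gene length and sums to the same total in every library, so that genes can be compared with each other. Pairs of libraries differed far beyond counting noise, with a chi-square per gene of 33.2 for the closest pair, so each counted as a library of its own. DMSO 4 stood apart from the other 3. Across the 13922 genes with a mean of at least 1 TPM, the correlation of log2(TPM + 1) ran from 0.987 to 0.990 among DMSO 1, 2 and 3, and from 0.952 to 0.967 between them and DMSO 4. These are correlations across genes, which are not independent replicates. By any margin, DMSO 4 was the highest library for 43.7% of these genes and the lowest for 38.8%, and counts of members at either end are to be read against these shares. Means below are over all 4 libraries unless stated, and values without DMSO 4 stand beside those that rest on it.

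The label of whole adult worms was checked against defining markers. Germline, oocyte, muscle and intestinal markers were well above the detection limit, as was one of the neuronal markers. They included the oocyte yolk receptor gene rme-2 at 381 ± 119.3 TPM (SD, n = 4), the muscle myosin gene unc-54 at 207 ± 46.6 TPM, the intestinal regulator elt-2 at 9.22 ± 1.44 TPM and the synaptobrevin gene snb-1 at 225 ± 18.6 TPM. The neuronal gene rgef-1 was near the limit of 1 TPM used here for a detected gene, at 1.28, 0.940, 0.894 and 1.32 TPM in DMSO 1 to 4. The coelomocyte marker unc-122 stood at 1.09, 0.963, 0.710 and 0.469 TPM and passed that limit in DMSO 1 alone. The strain's name gene col-121 had 21, 38, 69 and 49 counts, or 0.332, 0.686, 1.15 and 0.731 TPM. Without the allele, this level checks nothing about the strain.

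Markers of males were close to absent. None of the 9 genes in a list of male-specific neurons and seminal fluid reached a mean of 1 TPM. The polycystin genes lov-1 and pkd-2, which male sensory neurons use in mating, were nearly without reads. The 4 libraries held 1, 0, 0 and 0 counts of lov-1 and 0, 1, 0 and 1 counts of pkd-2. The sum of all 9 genes was 0.000216, 0.000159, 0.000180 and 0.000199% of TPM. The 5 cwp genes, expressed in male neurons, held 1, 0, 0 and 1 counts for cwp-1, 1, 0, 1 and 2 for cwp-2, 0, 1, 0 and 0 for cwp-3, 10, 3, 1 and 6 for cwp-4 and 9, 2, 7 and 10 for cwp-5. The leading members were plg-1, which encodes the mucin of the mating plug, at 1.06, 1.03, 0.948 and 0.418 TPM, and try-5, a protease of seminal fluid, at 0.582, 0.355, 0.616 and 1.02 TPM.

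The most abundant transcripts were those of the ribosome, of the mitochondrial genome and of yolk. Among the 30 genes of highest mean TPM, 13 had an rpl or rps symbol, the stems used here for proteins of the cytosolic ribosome. Genes of such proteins under other symbols were not counted. A further 4 lay on the mitochondrial genome, 2 encoded yolk proteins, 2 were ribosomal RNA genes and 1 encoded a translation factor. Of the messenger RNAs, the highest was rpl-41.2, for a small protein of the large ribosomal subunit, at 6748 ± 945 TPM. It was followed by the mitochondrial cytochrome oxidase gene COX3 at 6544 ± 855 TPM and by eef-1A.1, which encodes the elongation factor that brings aminoacyl-tRNA to the ribosome, at 5952 ± 846 TPM. Next among ribosomal protein genes were rpl-39 at 4231 ± 691 TPM, rpl-29 at 4164 ± 445 TPM, rps-25 at 3610.3 ± 285 TPM and rpl-36 at 3240 ± 278 TPM. The others with these symbols in the top 30, from rps-8 at 3125 TPM down to rpl-27 at 2809 TPM, were rpl-38, rpl-36.A, rpl-32, rps-23, rps-28 and rps-17. The mitochondrial genes MTCE.26, MTCE.21, MTCE.31 and MTCE.35 had means of 5683, 4598, 3686 and 2641 TPM. Of the leading genes, 21 genes were in the top 30 of every library, and 87 were in the top 100 of every library.

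The remaining leading genes had roles in fat transport, energy and the germline, or none that is given here. The gene far-2, for a fatty acid and retinol binding protein, stood at 3951, 4009, 3744 and 5399.9 TPM in DMSO 1 to 4, with DMSO 4 highest. The oocyte and embryo small heat shock gene sip-1 stood at 3891, 4026, 3806 and 2353 TPM, with DMSO 4 lowest and apart from the close values of the other 3. The adenine nucleotide translocase gene ant-1.1, which moves ATP out of mitochondria, stood at 3154, 2994, 3069 and 3554 TPM. The ATP synthase gene Y82E9BR.3 had one of the narrowest spreads of this set, at 3704, 3552, 3335 and 3458 TPM. The other highly ranked genes Y37E3.8, dct-16 and C17F4.7 had means of 3128, 3014 and 2996 TPM.

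**Figure D1:**
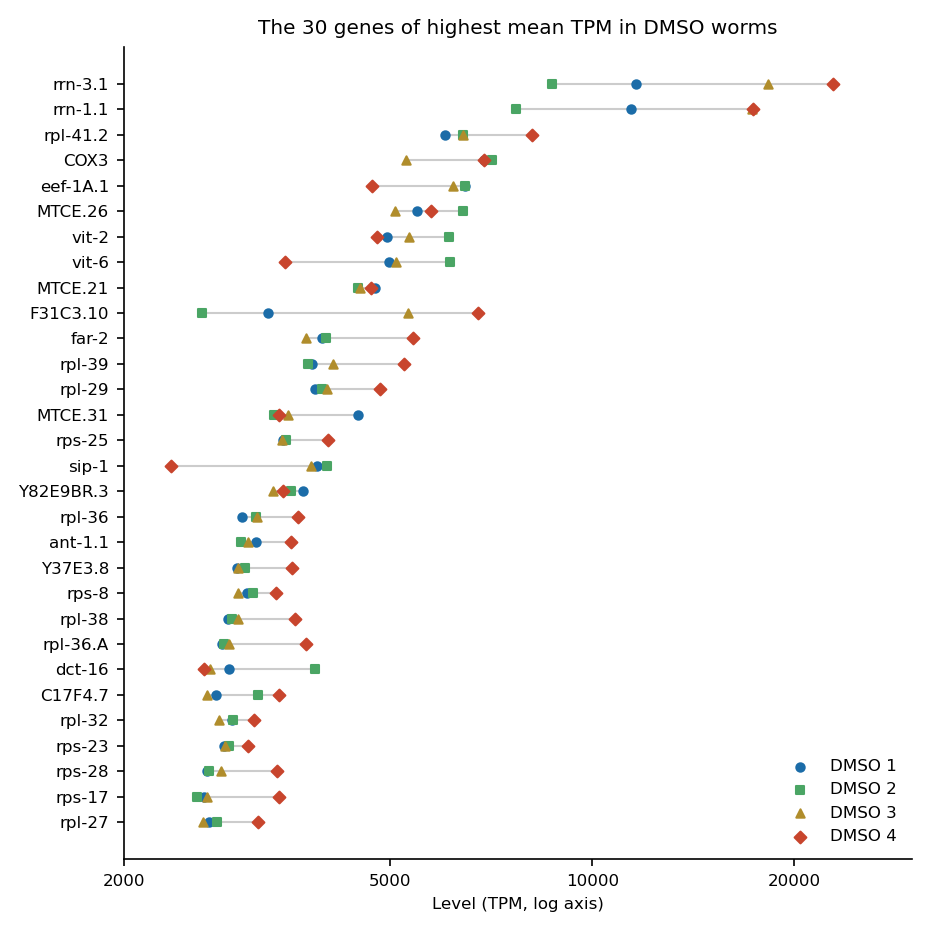
Level in TPM, on a log axis, of the 30 genes of highest mean TPM in each of the 4 DMSO libraries, 1 symbol per library and a grey line over their range. The rRNA genes rrn-3.1 and rrn-1.1 and the nearby pseudogene F31C3.10 span the widest ranges, and DMSO 4 is the lowest library for sip-1, vit-6 and eef-1A.1.

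Transcripts of the ribosomal DNA region on chromosome I varied most among the leading genes. The 26S rRNA gene rrn-3.1 (15064838 to 15068346; WBcel235) stood at 11634, 8722, 18275 and 22831 TPM and the 18S gene rrn-1.1 (15062083 to 15063836) at 11414, 7709, 17292 and 17353 TPM. The annotated pseudogene F31C3.10 (15060299 to 15061150) followed the same order at 3285, 2617, 5315 and 6752 TPM, as did the non-coding gene F31C3.13 (15070431 to 15070580) at 2154, 1455, 3531 and 4074 TPM. For each of these 4 genes DMSO 2 was lowest and DMSO 4 highest, as for the ribosomal RNA share of the counts. The role of the selection of polyadenylated RNA in this was not tested. Protein-coding genes held 95.5, 96.4, 93.9 and 92.8% of TPM in DMSO 1 to 4, and rRNA genes held 2.50, 1.85, 3.80 and 4.28%.

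Abundant genes held most of the transcriptome. The 147 genes with a mean of at least 1000 TPM together held 35.4 ± 1.49% of TPM, and the 1687 genes with at least 100 TPM held 71.0 ± 0.360%. The 100 leading genes of each library held 28.4, 28.1, 29.5 and 31.8% in DMSO 1 to 4, with DMSO 4 the most concentrated.

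By family, the 78 cytosolic ribosomal protein genes with rpl and rps symbols together were the largest group described here. They held 17.1, 17.3, 17.02 and 17.7% of TPM in DMSO 1 to 4, and all 78 were above 1 TPM. The 12 protein-coding genes of the mitochondrial genome held 3.00, 2.80, 2.54 and 2.89%. The 6 translation elongation genes in the list held 1.11, 1.13, 1.09 and 0.865%. DMSO 4 was lowest in 5 of 6, as it was for 38.8% of all detected genes. The leading member was eef-1A.1. Behind it were eef-2, eef-1G, eef-1B.1 and eef-1B.2, at means of 1623, 1404, 858 and 369 TPM. Other large families by the stem of their symbol were the aspartic protease genes (asp), with 0.714 ± 0.250%, the saposin-like genes (spp), with 0.664 ± 0.183%, the C-type lectin genes (clec), with 0.563 ± 0.0345%, the transthyretin-like genes (ttr), with 0.549 ± 0.0739%, and the vacuolar ATPase genes (vha), with 0.541 ± 0.0408% (mean ± SD, n = 4). The clec and vha families had the smallest SDs of these 5. The asp family was highest in DMSO 4, at 1.07% against 0.519, 0.689 and 0.572%.

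**Figure D2:**
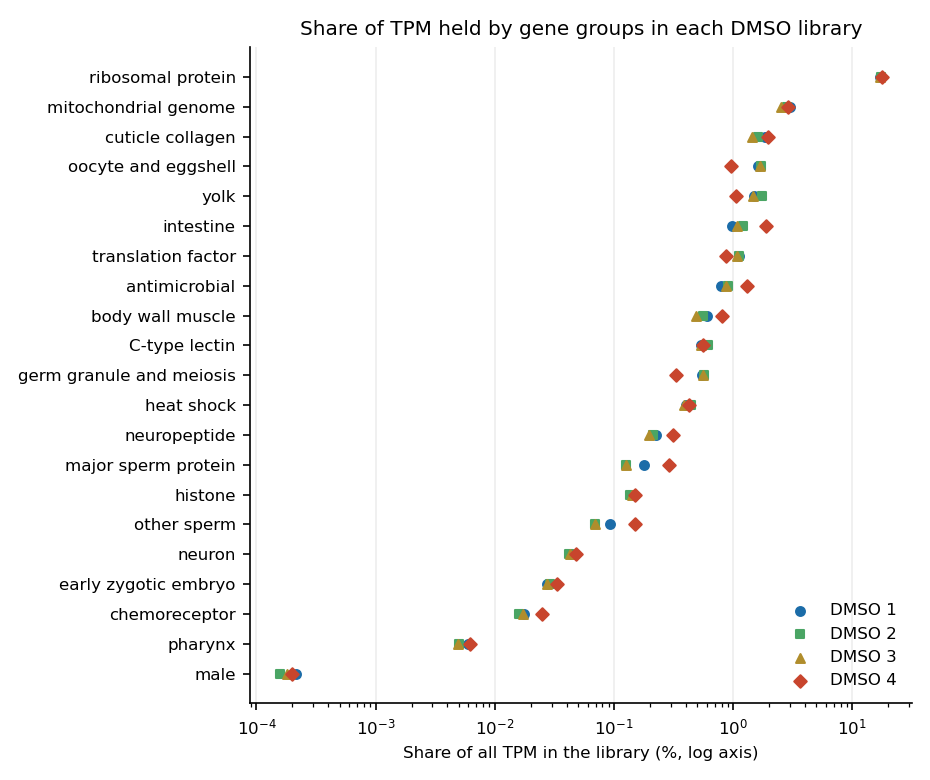
Share of all TPM in a library held by the summed members of 21 gene groups, on a log axis, with 1 symbol per DMSO library. Ribosomal protein genes are the largest group, male genes the smallest, and DMSO 4 lies below the other 3 libraries for oocyte, germline and yolk genes and above them for sperm, intestine and antimicrobial genes.

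Yolk transcripts took 1.499, 1.76, 1.47 and 1.05% of TPM in DMSO 1 to 4, with a mean of 1.44 ± 0.294% (SD, n = 4) and of 1.58 ± 0.157% over DMSO 1 to 3. Their transcripts are long, so the same 6 genes held 7.58% of the counts, which are not divided by length. The vitellogenin vit-2 (X chromosome, 5101042 to 5106169) stood at 4944, 6118, 5333 and 4774 TPM. The vitellogenin vit-6 (chromosome IV, 8261157 to 8266459), the single member not on the X chromosome, stood at 4971, 6133, 5089 and 3486 TPM. These 2 genes were close to each other in DMSO 1, 2 and 3, and vit-6 was the lower in DMSO 4. The vitellogenin vit-5 stood at 2065, 2384, 2106 and 1489 TPM, again with DMSO 4 lowest.

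The other 3 vitellogenin genes were further apart between libraries. The levels of vit-4 were 1423, 1359.6, 939 and 249 TPM in DMSO 1 to 4, those of vit-3 were 1003, 948, 821 and 312 TPM and those of vit-1 were 582, 635, 441 and 175 TPM. In each, DMSO 4 was under every other library by at least 2-fold, and DMSO 3 was the lowest of the remaining 3. All 6 yolk genes were lowest in DMSO 4, as were 38.8% of all detected genes, and 3 were so by at least 2-fold, as were 0.79%. The degree differed within the family: its level was 0.874 times the mean of DMSO 1 to 3 for vit-2 and 0.201 times for vit-4. The ratio of vit-2 to vit-4 was 3.47, 4.50, 5.68 and 19.2 in DMSO 1 to 4. The genes vit-3 and vit-4 are neighbours on the X chromosome (3567355 to 3572549 and 3558769 to 3563965) and encode similar proteins, so reads may be split between them by the authors' counting.

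Oocyte and eggshell transcripts had a summed share like that of yolk. The 35 genes of the list, all above 1 TPM, held 1.61, 1.70, 1.67 and 0.957% of TPM in DMSO 1 to 4. The mean was 1.48 ± 0.353% over 4 libraries and 1.66 ± 0.0427% over DMSO 1 to 3. The eggshell proteoglycan genes led: cpg-2 stood at 1547, 1641, 1632 and 844 TPM and cpg-1 at 1465, 1390.3, 1289.9 and 597 TPM. The Y-box RNA-binding gene cey-2 stood at 1381, 1469.8, 1472 and 953 TPM, and the eggshell barrier genes perm-2 and perm-4 had means of 901 ± 189 and 799.8 ± 196 TPM. In all 35 genes DMSO 4 was the lowest library, as it was for 38.8% of all detected genes, and in 4 it was lowest by at least 2-fold, where 0.79% of all detected genes were.

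DMSO 4 lay below the other libraries by a similar factor across the oocyte genes. Its ratio to the mean of DMSO 1 to 3 had a median of 0.570 over the 35 genes and ran from 0.432 for cpg-1 to 0.789 for cey-3, another Y-box gene. The median of all detected genes was 1.04. Of the oocyte maturation genes, oma-1 stood at 267, 291, 268 and 143 TPM and oma-2 at 381, 413, 396 and 208 TPM. Of the maternal cell fate regulators, mex-5 stood at 449, 472, 453 and 228 TPM and pos-1 at 843, 864, 889.9 and 523 TPM. In each of these 4 genes, DMSO 1 to 3 lay close together and DMSO 4 below them. The genes cey-3, mex-5 and pos-1 were picked after their values were seen. Within DMSO 1 to 3 the oocyte genes had a median coefficient of variation (CV, the SD as a percentage of the mean) of 3.23%, against 8.34% for all detected genes. These values are not matched for level, on which the CV depends. For all genes the median over DMSO 1 to 3 was 4.03% at 30 to 100 TPM and 4.17% at 100 to 300 TPM. It was 5.09% at 300 to 1000 TPM and 2.78% at 1000 TPM or over.

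Genes of germ granules and of meiosis followed the oocyte genes in part. The 29 genes held 0.552, 0.565, 0.562 and 0.330% of TPM in DMSO 1 to 4, and DMSO 4 was the lowest library in 26 of 29, against 38.8% of all detected genes. The RNA helicase gene cgh-1 stood at 1294, 1287, 1362 and 675 TPM, its partner car-1 at 839, 859, 811 and 421 TPM and the translational repressor gene gld-1 at 545, 545, 540.0 and 290.0 TPM. Of the P granule genes, pgl-1 stood at 222, 236.9, 228 and 136 TPM and glh-1 at 192, 216, 190.4 and 122.1 TPM. All 5 were lowest in DMSO 4. The Argonaute gene wago-1 and the translational regulator ifet-1, also among the leading 5, had means of 279.8 ± 61.8 and 233 ± 60.4 TPM. Not all members of the list differed between libraries by as much. The chromosome axis gene him-3 stood at 125, 122.5, 132 and 123 TPM, the synaptonemal complex gene syp-1 at 54.3, 48.5, 55.3 and 52.8 TPM, syp-2 at 88.8, 89.8, 93.3 and 86.9 TPM and syp-3, the one gene of the list with DMSO 4 highest, at 71.0, 72.6, 73.3 and 79.3 TPM. These 4 genes were picked after their values were seen. The ratio of summed oocyte to summed germ granule and meiosis transcripts was 2.92, 3.00, 2.97 and 2.90 in DMSO 1 to 4.

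Sperm transcripts were well below oocyte transcripts in every library and were highest in DMSO 4. The 31 genes of the major sperm protein, the cytoskeletal protein that moves nematode sperm and also signals to oocytes, held 0.179, 0.126, 0.127 and 0.291% of TPM in DMSO 1 to 4. The leading members, which include msp-59 at 127, 87.1, 95.1 and 214 TPM, msp-51 at 125, 90.2, 85.1 and 211 TPM and msp-57 at 121.8, 84.7, 86.7 and 203 TPM, showed the order DMSO 4, then DMSO 1, then DMSO 2 and 3. Of 28 detected members, 28 were highest in DMSO 4, as were 43.7% of all detected genes. In all 28 the second was DMSO 1, as it was in 517 of the 745 genes of any kind with DMSO 4 at least 2-fold highest. The genes are nearly identical in sequence, among them also msp-19 and msp-113 with means of 113.7 ± 44.04 and 97.5 ± 33.8 TPM, so the split of reads among them is uncertain and their sum is the firmer value.

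The other 62 sperm genes, which do not belong to that family, had the same order of libraries for most members. They held 0.0926, 0.0698, 0.0698 and 0.151% of TPM in DMSO 1 to 4, and 48 of 52 detected members were highest in DMSO 4, where 43.7% of all detected genes were. Leading members were ssp-9 at 70.1, 37.3, 52.5 and 95.5 TPM, nspd-3 at 52.1, 38.2, 35.8 and 90.5 TPM and msd-1 at 45.6, 37.2, 39.4 and 80.8 TPM. The related genes nspd-1 and nspd-2 had means of 48.3 ± 26.4 and 51.3 ± 23.7 TPM. Of the sperm phosphatase genes, gsp-3 stood at 16.8, 9.13, 10.4 and 23.6 TPM and gsp-4 at 14.5, 8.95, 8.56 and 20.3 TPM. The ferlin gene fer-1, needed for membrane fusion in sperm, stood at 1.36, 1.01, 0.967 and 1.497 TPM, and spe-9, a sperm surface protein needed for fertilization, at 0.595, 0.466, 0.526 and 0.943 TPM. Of the 4 members not highest in DMSO 4, 3 were lowest there: spe-44, which encodes a transcription factor of early sperm development, stood at 17.5, 15.4, 16.9 and 10.97 TPM, spe-48 stood at 42.6, 46.6, 43.6 and 37.8 TPM and spe-41, a sperm calcium channel gene, at 7.47, 6.46, 6.02 and 6.02 TPM. The fourth, ssp-37, stood at 16.51, 17.1, 19.5 and 16.6 TPM. These 4 genes were picked after their values were seen. The summed sperm protein family kept a nearly constant ratio to the other sperm genes, 1.93, 1.81, 1.82 and 1.92 in DMSO 1 to 4, while the ratio of oocyte to major sperm protein transcripts was 9.02, 13.4, 13.2 and 3.29.

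Early embryonic transcripts were low. The 57 genes of the list of early zygotic transcription held 0.0276, 0.0291, 0.0273 and 0.0335% of TPM in DMSO 1 to 4, and 20 reached a mean of 1 TPM. One gene, sdz-27, made up 40.5% of that sum, at 111.7, 118.9, 124 and 122.01 TPM. The other leading members were sdz-24, tbx-9, die-1 and elt-7, at means of 57.03, 22.3, 16.14 and 10.9 TPM. The endoderm gene end-1 had 7, 4, 12 and 6 counts, the earlier regulator med-1 had 0, 2, 0 and 1 counts and tbx-37, of the early AB lineage, had 0, 1, 2 and 5 counts in DMSO 1 to 4. The gene tbx-35 and the genes sdz-16 and sdz-23 had 0 counts in all 4 libraries.

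**Figure D3:**
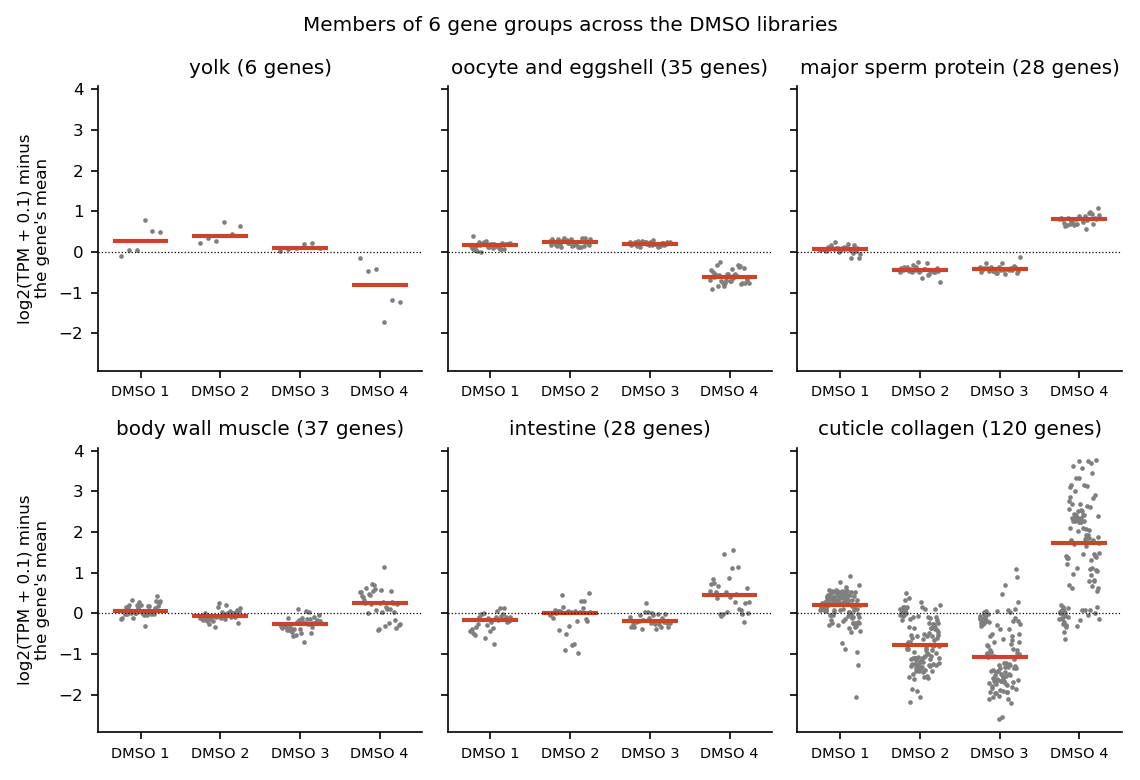
Each grey point is 1 gene in 1 DMSO library, drawn as its log2(TPM + 0.1) minus its mean over the 4 libraries, for detected members of 6 gene groups, and red bars are medians over genes. In DMSO 4 all yolk and oocyte genes lie below their mean, all major sperm protein genes above it, and collagens spread upward to nearly 4 on this scale.

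Muscle transcripts were led by the thin filament and regulatory proteins of the sarcomere. The 37 genes of the list, all above 1 TPM, held 0.607, 0.557, 0.483 and 0.805% of TPM in DMSO 1 to 4. The troponin C gene pat-10 stood at 919, 933, 845 and 1452 TPM, the myosin light chain gene mlc-2 at 696, 697, 612 and 1089 TPM and the tropomyosin gene lev-11 at 537, 480.4, 421 and 692 TPM, each highest in DMSO 4 and lowest in DMSO 3. The actin gene act-4, which is also in the list of actin and tubulin genes, had a mean of 689 ± 167 TPM, and the calponin-like gene cpn-3 one of 443 ± 82.9 TPM. The myosin heavy chain unc-54 stood at 254, 183, 154 and 236.7 TPM and its minor partner myo-3 at 14.2, 13.4, 10.2 and 20.99 TPM, so DMSO 1 was highest for unc-54 and DMSO 4 for myo-3. The giant proteins of the sarcomere, unc-22 (twitchin), ttn-1 (titin) and unc-89 (obscurin), were low on this per-length scale, at means of 7.47 ± 1.86, 1.71 ± 0.344 and 8.28 ± 1.41 TPM, and unc-22 and ttn-1 were lowest in DMSO 4. These 3 genes were picked after their values were seen. Of the 37 genes, 23 were highest and 7 lowest in DMSO 4, where 43.7 and 38.8% of all detected genes were.

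Among cuticle collagens with at least 1 TPM over DMSO 1 to 3, DMSO 4 differed more from the others at lower levels, on the whole. There were exceptions on both sides. The 175 genes held 1.84, 1.63, 1.43 and 1.96% of TPM in DMSO 1 to 4, and 120 were detected. The leading collagen col-119 stood at 1918, 1931, 1729 and 1651 TPM, col-140 at 1731, 1541, 1449 and 1599.7 TPM and col-178 at 1194, 1111, 1013 and 1142 TPM. Next were col-20 at 1079 ± 93.5 TPM and col-122 at 1064 ± 123 TPM (mean ± SD, n = 4). The adult cuticle collagen col-19 stood at 699, 605, 527 and 703 TPM, while col-7, also of the adult cuticle, stood at 8.21, 1.07, 1.09 and 48.6 TPM. The adult collagens thus differed: DMSO 4 was close to DMSO 1 for col-19 and far above every other library for col-7. The collagens of the annular furrows, such as dpy-7 at 1.52, 1.48, 1.78 and 3.55 TPM and dpy-10 at 4.07, 3.81, 4.26 and 4.43 TPM, were of low level. The others of the leading 5 were dpy-2, dpy-8 and dpy-9, at means of 2.51 ± 0.923, 1.91 ± 1.57 and 1.69 ± 1.40 TPM. All 6 genes of this kind were highest in DMSO 4, by a small margin for dpy-10, where 43.7% of all detected genes were highest. Among all genes at 1 to 10 TPM over DMSO 1 to 3, the median ratio of DMSO 4 to the mean of DMSO 1 to 3 was 1.30.

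Among the 22 collagens with a mean of at least 100 TPM over DMSO 1 to 3, DMSO 4 was at least 2-fold highest in 0, and the median ratio to the mean of DMSO 1 to 3 was 1.00, with single genes from 0.549 to 3.33. One of these genes, col-139, stood at 204, 83.0, 76.6 and 403 TPM. Among the 23 at 10 to 100 TPM, DMSO 4 was at least 2-fold highest in 12, with a median ratio of 3.26. Among the 65 at 1 to 10 TPM it was so in 47, with a median ratio of 5.80. Over all genes of these levels, 0.63, 1.68 and 7.99% were at least 2-fold highest in DMSO 4. The 65 collagens under 1 TPM went against this order. DMSO 4 was at least 2-fold highest in 26 of them, and the median ratio was 2.44 over the 49 with a ratio. No share over all genes under 1 TPM is given here. These levels leave DMSO 4 out, so that no gene enters a band through it.

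Among the variable collagens, DMSO 1 was nearly always between DMSO 4 and the other 2 libraries. The collagen gene col-12 stood at 36.2, 8.78, 7.91 and 177 TPM, col-3 at 31.9, 16.6, 6.28 and 159 TPM and dpy-13 at 17.5, 5.76, 4.76 and 71.4 TPM. Of the cuticle genes, dpy-5 stood at 17.02, 6.35, 4.24 and 74.3 TPM and dpy-4 at 18.3, 6.47, 4.32 and 71.4 TPM. With the filter on DMSO 1 to 3 alone, 59 of 110 collagens had DMSO 4 at least 2-fold highest, and with that on all 4 libraries 68 of 120 had. Of these 68, DMSO 1 was second in 67. Among all 745 genes with DMSO 4 at least 2-fold highest it was second in 517. The 5 collagens of this paragraph were picked after their values were seen. In the summed share of all 175 genes, which the abundant collagens lead, DMSO 4 was at 1.203 times the mean of the others.

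Intestinal transcripts were led by lysosomal and digestive enzymes. The 28 genes held 0.978, 1.202, 1.08 and 1.89% of TPM in DMSO 1 to 4. The saposin-like gene spp-5 stood at 1858, 2452, 2335 and 3679 TPM, and the aspartic protease genes asp-1 at 1726, 2254, 1778 and 3708 TPM and asp-6 at 1120.0, 1449, 1311 and 2821 TPM, with DMSO 4 highest in each. The related genes asp-3 and asp-5 had means of 1078 ± 448 and 894 ± 249.6 TPM. The desaturase gene fat-6 stood at 420.0, 341, 395 and 723 TPM and the metallothionein gene mtl-1 at 111, 84.2, 144 and 312 TPM. For other intestinal genes DMSO 4 lay within or near the range of the rest. The microvillar actin gene act-5 was at 372, 518, 291 and 363 TPM, the esterase gene ges-1 at 29.4, 28.2, 30.6 and 37.1 TPM and the lysozyme gene lys-1 at 319, 357, 287 and 316 TPM. The genes fat-6, mtl-1, act-5 and lys-1 were picked after their values were seen. DMSO 4 was highest in 19 of 28 genes and lowest in 0, where it was highest for 43.7% and lowest for 38.8% of all detected genes.

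Neuronal and pharyngeal transcripts were low. The 26 neuronal genes held 0.0437, 0.0419, 0.0427 and 0.0480% of TPM, of which snb-1 alone made up 51.1%. Of 19 detected members, 17 were highest and 2 lowest in DMSO 4, where 43.7 and 38.8% of all detected genes were. The gene snb-1 was among the lowest there, at 230.8, 230.3, 241.5 and 198.5 TPM in DMSO 1 to 4. Behind it in level were the neuropeptide processing genes, with sbt-1 at 27.98, 27.4, 28.2 and 47.7 TPM, egl-21 at 28.1, 25.6, 25.3 and 37.6 TPM and egl-3 at 21.7, 18.2, 17.5 and 27.1 TPM. The syntaxin gene unc-64 had a mean of 25.1 ± 6.33 TPM. The transmitter genes below, picked after their values were seen, were under 1 TPM. The serotonin gene tph-1 stood at 0.325, 0.318, 0.393 and 0.117 TPM and the dopamine gene cat-2 at 0.239, 0.208, 0.181 and 0.161 TPM. The 14 pharyngeal genes held 0.00593, 0.00503, 0.00495 and 0.00620% of TPM, with the pharyngeal myosin myo-2 at 3.77, 2.64, 2.53 and 2.56 TPM. The leading pharyngeal genes were tni-4, tnc-2, phat-6, pha-4 and phat-4, at means of 25.8, 9.03, 3.98, 3.12 and 2.99 TPM. Neuropeptide genes held 0.226, 0.212, 0.196 and 0.315%, and 92 of 102 were detected. The leading one was the intestinal neuropeptide gene nlp-40 at 374, 455, 398 and 567 TPM. It was followed by nlp-36, nlp-27, nlp-33 and nlp-24, at means of 192, 159, 145 and 137 TPM. A set of 11 members of that list encode antimicrobial peptides and are in the antimicrobial list as well.

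Among chaperone genes, DMSO 4 was lowest for several abundant members and highest for the hsp-16 genes with counts named here. The abundant small heat shock gene sip-1, described above and not in this list, was lowest in DMSO 4. Of the constitutive cytosolic genes, hsp-1 stood at 1312, 1459, 1264 and 838 TPM and hsp-90 at 1084, 1257, 1101 and 794 TPM, and the mitochondrial gene hsp-60 at 306, 321, 281 and 169 TPM, each lowest in DMSO 4. The mitochondrial chaperone gene hsp-6 was lowest there too, at 403, 373, 414 and 305 TPM, but hsp-3, of the endoplasmic reticulum, was lowest in DMSO 3, at 238, 281, 190.1 and 200.4 TPM. The small heat shock gene hsp-16.11 (chromosome V, 9090077 to 9090604) stood at 71.0, 59.3, 48.9 and 636 TPM and its neighbour hsp-16.48 at 49.1, 50.8, 48.9 and 467 TPM. Of further inducible genes, hsp-16.2 stood at 6.73, 4.50, 4.56 and 76.4 TPM, hsp-16.41 at 3.63, 2.94, 3.11 and 77.1 TPM and hsp-70 at 3.43, 1.64, 1.89 and 22.5 TPM. These last 3 genes were picked after their values were seen. In all 5 inducible genes DMSO 4 was more than 2-fold above the other 3 libraries, whose values for hsp-70 were themselves about 2-fold apart. Of 17 detected chaperone genes, 8 were at least 2-fold highest in DMSO 4, where 5.35% of all detected genes were. With the filter on DMSO 1 to 3 alone, 8 of 17 were. The near-identical copy hsp-16.1 had 0 counts in all 4 libraries, so reads of the pair may have been given to hsp-16.11 alone. The summed list, in which constitutive genes were the most abundant, held 0.400, 0.441, 0.387 and 0.425% of TPM.

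Of 46244 gene identifiers in the tables, 23700 had 0 counts in all 4 DMSO libraries, which is 51.2%. Most were short RNA genes that selection for polyadenylated RNA does not aim to capture: 15362 of 15363 piRNA genes and 5844 of 7712 other non-coding RNA genes. Among protein-coding genes, 1184 of 19821 had no count, or 5.97%, and 13028 had a mean of at least 1 TPM. A count of 0 in a library allows a level of up to 0.0598 to 0.0675 CPM (counts scaled to library size), by the rule of 3 counts, counting error only. These genes gave no count at this depth, which does not show that they were not transcribed.

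Chemoreceptor genes, many of which act in few sensory neurons, had the largest share without a count of the families described here. Of 1299 genes with symbols of the chemoreceptor families, 441 had 0 counts in all 4 libraries, or 33.9%, and 27 reached a mean of 1 TPM. The leading ones were srv-1 at 16.8, 15.9, 16.9 and 22.4 TPM, str-176 at 17.1, 13.7, 15.5 and 20.9 TPM and srr-4 at 9.93, 6.02, 8.25 and 43.6 TPM, and sri-40 and srh-237 had means of 15.8 and 6.55 TPM. Of the C-type lectin genes, 35 of 237 had no count, of the nuclear hormone receptor genes 18 of 269 and of the F-box genes 13 of 316. In the tissue lists, genes with 0 counts in all 4 libraries were few. Among them were the collagens col-55 and col-171, the sperm genes msd-3, nspd-8 and msp-32 and the histone genes his-13, his-15 and his-39. Others were the insulin-like genes ins-8, ins-15, ins-31 and ins-39, the neuropeptide gene nlp-22 and the antimicrobial genes lys-9, cnc-5, spp-20 and spp-30. Further members had counts but a mean under 1 TPM, so 120 of 175 collagens and 21 of 38 insulin-like genes were detected. Histone and sperm protein genes occur as near-identical copies, so a 0 there is uncertain. Transcripts of replication-dependent histones also lack a poly(A) tail in most animals.

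**Figure D4:**
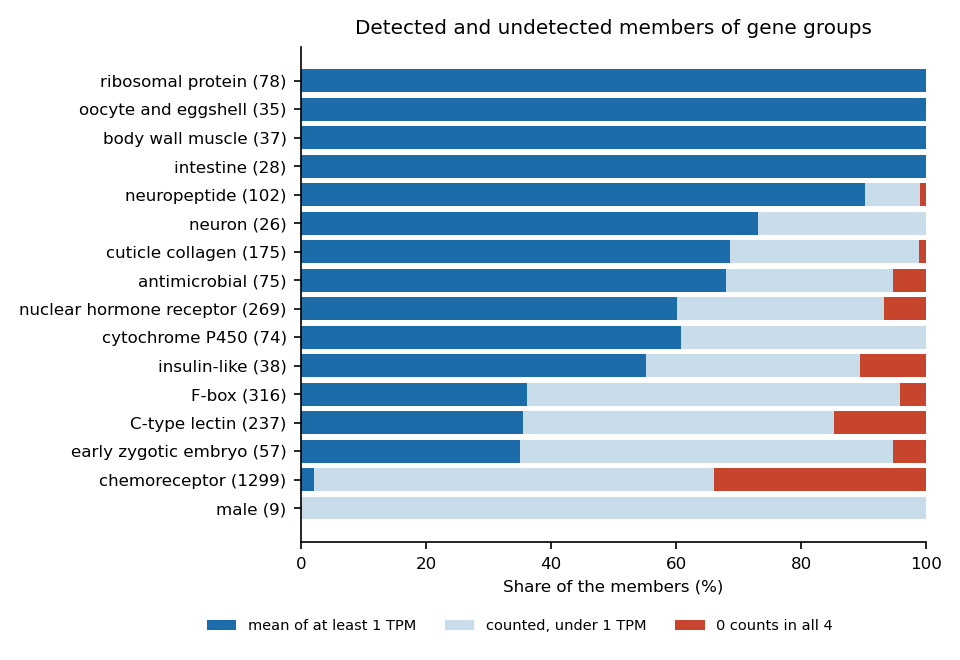
Share of the members of 16 gene groups, in percent, with a mean of at least 1 TPM, with counts but under 1 TPM, and with 0 counts in all 4 DMSO libraries, with the number of members in brackets. Every ribosomal protein, oocyte, muscle and intestinal gene is detected, and the chemoreceptor genes have the largest share of members without a count.

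Detection differed between chromosomes. Of the protein-coding genes, 80.5% of those on chromosome III and 77.0% on chromosome I had a mean of at least 1 TPM, against 49.3% on chromosome V. Chromosome V, which carries many chemoreceptor genes, also had the largest share without a count, 12.5%. On the X chromosome 65.4% were detected, close to the 64.99% of chromosome II, but the detected genes had the lowest median level, 8.58 TPM against 13.1 TPM on chromosome V and 35.7 TPM on chromosome III. In C. elegans the X chromosome is known to be transcribed at a low level in much of the germline. X-linked genes held 6.80, 7.16, 6.50 and 7.70% of TPM in DMSO 1 to 4, most in DMSO 4. The 5 X-linked vitellogenin genes are part of that share.

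The spread between libraries was smaller for abundant genes and smaller without DMSO 4. The median CV over the 4 libraries was 18.1% across the 13922 detected genes, and 8.34% over DMSO 1 to 3. It went from 34.9% for genes at 1 to 3 TPM to 7.70% for genes at 1000 TPM or over. The common biological coefficient of variation, the spread between libraries beyond counting noise as edgeR estimates it, was 0.269 over 14469 genes. It was 0.137 without DMSO 4, and 0.280 to 0.314 with one of the others left out. DMSO 4 was the library farthest from the gene's mean for 68.01% of genes.

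**Figure D5:**
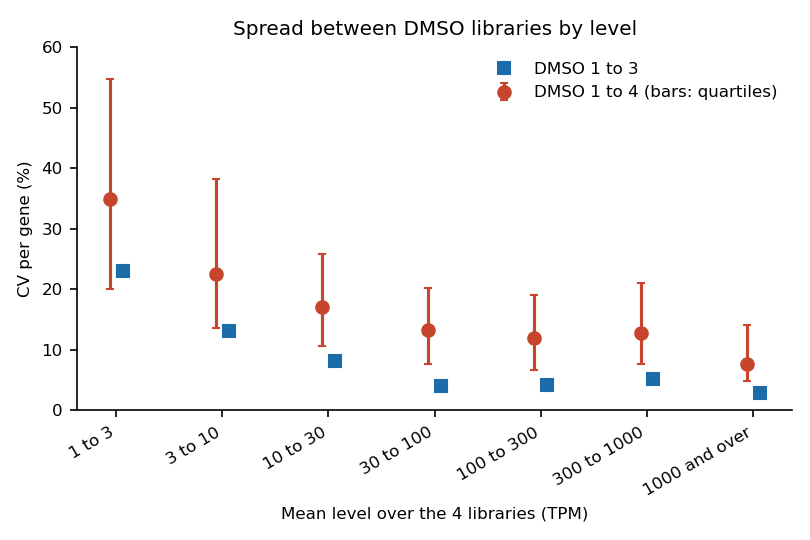
Median CV per gene, in percent, by mean level in TPM, over DMSO 1 to 4 (circles, with bars from the lower to the upper quartile of genes) and over DMSO 1 to 3 (squares). The spread is lower for abundant genes and lower at every level without DMSO 4.

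Counted by genes, 745 of 13922 were at least 2-fold higher in DMSO 4 than in any other library, which is 5.35%, and 110 were at least 2-fold lower, which is 0.79%. The same counts were 39 and 54 genes (0.28 and 0.388%) for DMSO 1, 40 and 168 genes (0.287 and 1.21%) for DMSO 2, and 22 and 101 genes (0.158 and 0.725%) for DMSO 3. Kept to genes with a mean of at least 1 TPM over the other 3 libraries, a filter chosen after seeing the data, 573 genes were so called, which is 4.22%, and 126 were lowest by as much, which is 0.928%. Under that filter the col family had 48 of 90 members highest by 2-fold, clec genes 7 of 81, nlp genes 8 of 61 and ugt genes, which conjugate sugars to small molecules, 7 of 46. Further families were hsp with 7 of 20, spp with 6 of 20, cyp with 6 of 45, dpy with 5 of 23 and grl with 5 of 9. Families are named here by the number of genes called and not by share. The nhr family, with 8 of 163, had a share near that of all genes. Among genes lowest in DMSO 4, the vit family led with 3 of 6.

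The 4 DEET libraries, which the choice of these genes did not use, carry the same pair numbers. Of the 745 genes highest in DMSO 4, 713 (95.7%) were also highest, among the DEET libraries, in DEET 4, and 355 were so by at least 2-fold. Of the 110 genes lowest in DMSO 4, 72 (65.5%) were lowest in DEET 4, and 16 were so by at least 2-fold. The share of all detected genes highest or lowest in DEET 4 was not computed, so these counts lack a background. Among the DMSO libraries, DMSO 4 was highest by any margin for 43.7% of detected genes and lowest for 38.8%. For the genes set apart in DMSO 1, 2 or 3, the share with the same-numbered DEET library at the same end ran from 27.3 to 60.7%. The ribosomal RNA share of the counts was also highest in DMSO 4, at 10.9%, and its part in these differences was not tested.

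Ranked by CV among the 1687 genes with a mean of at least 100 TPM, the 10 most variable were all highest in DMSO 4. This filter admits genes through DMSO 4 itself: hsp-16.11, hsp-16.48, lys-4 and cpr-4 had means under 100 TPM over DMSO 1 to 3. Among the 1745 genes with at least 100 TPM over DMSO 1 to 3, a filter added after the data were seen, 9 of the 10 most variable were highest in DMSO 4, and the other, F46F2.3, was highest in DMSO 2. The 10 genes of the first ranking were hsp-16.11 and hsp-16.48, with CVs of 141 and 136%, F53A9.8, the lysozyme gene lys-4, the cathepsin B-like genes cpr-1 and cpr-4, the saposin-like gene spp-2, the long non-coding RNA gene tts-1, the alcohol dehydrogenase gene adh-1 and the collagen gene col-139. The levels of tts-1 were 1765, 885, 2133 and 6037 TPM in DMSO 1 to 4, those of lys-4 were 52.03, 97.6, 94.5 and 347 TPM and those of cpr-4 were 68.6, 69.1, 112.3 and 340.1 TPM. The gene F53A9.8 stood at 280.0, 239, 374 and 1488 TPM and spp-2 at 194, 168, 267 and 825 TPM. The steadiest gene was cap-2, which encodes a subunit of the actin capping protein, at 115, 115, 116 and 115 TPM and a CV of 0.340%. It was followed by the ribosomal protein genes rps-16 and rpl-25.2, tif-1A, the seryl-tRNA synthetase gene sars-1, the derlin gene cup-2, T03F6.3, the CAAX protease gene fce-1, rps-13 and rpl-12, with CVs of up to 1.43%.

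In a ranking over DMSO 1 to 3 alone, added after the data were seen, DMSO 2 was the library farthest from the others for 6 of the 10 leading genes. The glyoxylate cycle gene icl-1 stood at 345, 105, 308 and 386 TPM, adh-1 at 177, 40.1, 163 and 426 TPM and F45D11.14 at 325, 134, 275 and 371 TPM, each lowest in DMSO 2. The gene F46F2.3 stood at 257, 527, 242 and 111.9 TPM and the aspartic protease gene asp-14 at 81.3, 199, 121.6 and 103 TPM, each highest in DMSO 2. Further genes of the same kind, picked after their values were seen, were acs-2, an acyl-CoA synthetase of fat breakdown, at 97.6, 19.5, 88.1 and 124 TPM, and cth-1, which encodes a cystathionine gamma-lyase, at 41.6, 103, 51.4 and 15.4 TPM. The arginine kinase gene argk-1 stood at 13.2, 58.9, 19.6 and 2.96 TPM. The gene argk-1 was likewise picked after its values were seen. DMSO 2 was thus at the opposite end from DMSO 4 for icl-1, acs-2, cth-1, F46F2.3 and argk-1. DMSO 2 also had the lowest share of ribosomal RNA, and the part of that in these values was not tested.

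Genes in common use as references for quantitative PCR differed in their spread. The least variable of the 10 was rbd-1 at 47.1, 42.5, 44.5 and 39.98 TPM, with a CV of 6.97%. The small GTPase gene cdc-42 stood at 249, 259.7, 255 and 214 TPM and iscu-1 at 155, 161, 165 and 192 TPM, with CVs of 8.43 and 9.66%. The tubulin gene tba-1 stood at 437, 466, 441 and 257 TPM, the RNA polymerase II gene ama-1 at 48.9, 52.6, 50.1 and 30.5 TPM and the transporter gene pmp-3 at 52.8, 55.6, 55.3 and 35.3 TPM. These last 3, along with eif-3.C at 153, 161, 149 and 109 TPM, were lowest in DMSO 4 and close together in DMSO 1 to 3, where their CVs were 3.48, 3.72, 2.78 and 3.88%. The actin gene act-1 stood at 715, 716, 585 and 819.9 TPM, and the glyceraldehyde-3-phosphate dehydrogenase genes gpd-2 at 627, 461, 518 and 539 TPM and gpd-3 at 825, 641, 677 and 889 TPM. For act-1 and both gpd genes DMSO 1 to 3 were themselves further apart, with CVs over these libraries of 11.2, 15.7 and 13.7%.

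Large regulatory and detoxification families were broadly transcribed at low levels. Of 269 nuclear hormone receptor genes, 162 were detected, and together they held 0.129, 0.125, 0.120 and 0.140% of TPM in DMSO 1 to 4. The leading member was nhr-49, a regulator of fat metabolism, at 77.4, 76.2, 79.7 and 69.0 TPM, while nhr-114 was highest in DMSO 2 at 33.7, 63.2, 37.1 and 22.2 TPM. The receptor genes nhr-66, nhr-68 and nhr-97 had means of 56.7, 48.2 and 42.3 TPM. Of 74 cytochrome P450 genes, 45 were detected and held 0.0622, 0.0563, 0.0631 and 0.0708%. They were led by cyp-31A5, cyp-31A2 and cyp-31A3, at means of 100.6 ± 13.7, 96.4 ± 12.9 and 62.6 ± 11.3 TPM, and of these cyp-31A2 and cyp-31A3 are close copies that may share reads. The P450 gene cyp-13A5 was the most variable of the leading 5, at 48.9, 20.2, 51.8 and 117 TPM, and cyp-44A1 had a mean of 38.98 ± 3.82 TPM. Of 38 insulin-like genes 21 were detected, led by ins-27 at 38.7, 46.3, 41.9 and 58.8 TPM and ins-19 at 53.4, 54.3, 43.3 and 21.3 TPM. Then came ins-17, ins-23 and ins-7, at means of 18.7, 7.92 and 6.93 TPM. The gene ins-19 was lowest in DMSO 4 and ins-27 highest there.

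Members of the antimicrobial and lectin families differed in the direction in which DMSO 4 stood apart. The 75 antimicrobial genes held 0.790, 0.910, 0.877 and 1.31% of TPM in DMSO 1 to 4, and 51 were detected, 12 of them with DMSO 4 at least 2-fold highest, where 5.35% of all detected genes were. With the filter on DMSO 1 to 3 alone it was 11 of 50. Behind spp-5, the leading members were the saposin-like genes spp-3 at 875, 1163, 1049.8 and 1484 TPM and spp-14 at 754, 861, 882 and 1442 TPM and the lysozyme gene ilys-5 at 757, 1105, 928 and 1218 TPM, each highest in DMSO 4. The saposin-like gene spp-17 was lowest there, at 520.1, 453, 410.3 and 219 TPM. Of the C-type lectin genes, clec-87 was lowest in DMSO 4, at 1250.4, 1368, 1331 and 771 TPM, as was clec-209, at 876, 1044, 618 and 497 TPM. The lectin gene clec-63 was highest there, at 505, 674, 554 and 935 TPM, and clec-88 and clec-50 had means of 539 ± 61.1 and 364 ± 30.8 TPM.

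The remaining groups include pud genes, histones, F-box genes, the cytoskeleton and molting genes. Of the pud genes, pud-2.2 stood at 3021, 2084, 2744 and 2494 TPM and pud-1.2 at 2421, 1528, 2165 and 1995 TPM, with DMSO 2 lowest in both. The genes pud-3 and pud-4 had means of 77.2 ± 33.1 and 52.04 ± 12.8 TPM. The sum of 5 pud genes was 0.563, 0.370, 0.503 and 0.461% of TPM, and pud-1.1 stood at 0.544, 0, 0.601 and 0 TPM, with no count in DMSO 2 and 4. Close copies in the family may share reads. The 56 histone genes held 0.146, 0.136, 0.142 and 0.151%, led by the replacement histone H3 genes his-74 at 385, 408, 426 and 340.3 TPM and his-72 at 331, 339, 337 and 281 TPM. The histone genes his-37, his-35 and his-41 had means of 164, 96.9 and 91.4 TPM. The 316 F-box genes held 0.120, 0.122, 0.125 and 0.131%, with fbxa-215 highest at 214, 226, 228 and 198 TPM. It was followed by fbxc-44, fbxa-210, fbxa-101 and fbxc-50, at means of 68.7, 56.7, 50.9 and 40.5 TPM. The 17 actin and tubulin genes held 0.604, 0.624, 0.544 and 0.504%, and among them the tubulin genes tbb-2, at 876, 923, 853 and 581 TPM, and tba-2, at 770.2, 774, 759 and 477 TPM, were lowest in DMSO 4. The actin genes act-3 and act-2 had means of 816 ± 61.8 and 712 ± 172 TPM. The 15 molting genes held 0.0118, 0.0122, 0.0108 and 0.0131%, led by nhr-23, a regulator of the molting cycle, at 42.7, 43.6, 42.2 and 25.98 TPM and lowest in DMSO 4. That gene went against its list, in which 11 of 14 detected members were highest and 2 lowest in DMSO 4, where 43.7 and 38.8% of all detected genes were. The protease gene nas-37 stood at 19.4, 20.5, 15.6 and 19.3 TPM and mlt-8 at 7.45, 5.45, 5.42 and 17.2 TPM, and mlt-7 and lrp-1 had means of 12.1 ± 2.34 and 8.24 ± 0.704 TPM. Of the genes of coelomocytes and the excretory canal, which held 0.0113, 0.0162, 0.0108 and 0.0113%, the aquaporin gene aqp-8 was highest in DMSO 2, at 61.1, 103.98, 49.6 and 69.3 TPM, and exc-4 stood at 42.6, 50.2, 49.5 and 36.4 TPM and cup-4 at 8.55, 6.39, 7.80 and 7.24 TPM.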

How the data were processed

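Whole worms of C. elegans were exposed to 0.1% DMSO for 24 hours, and polyadenylated RNA was sequenced as paired 38-nucleotide reads, per the labels' protocols. The authors deposited gene counts, whole numbers per gene that were not normalized, and TPM values, which are scaled by transcript length and library total. Salmon, DESeq2 and WBcel235 are named, without versions, in the submitters' processing notes. No source used here gives the strand setting or the handling of reads with several matches. Both tables list 46244 identifiers, of which 46182 matched 1 gene of the Ensembl annotation of WBcel235, 3 had a name shared by several genes and 59 matched none. Library depth was 44437681 to 50155299 counts.

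From these, shares of TPM, ranks, CVs and counts of genes at least 2-fold from the nearest other library were computed with Python 3.11.15, pandas 2.3.3 and matplotlib 3.10.9. The common biological coefficient of variation came from edgeR 4.0.16 in R 4.3.3, with an intercept only, TMM scaling and its filter on low counts. A check of the fit on simulated data left out the genes changed in 1 library, so it does not cover a library that stands apart. DESeq2 1.42.0 gave alternative size factors. There is 1 group, so groups were not compared and no p-value is given. Dixon's ratio marked libraries far from the others. The labels call the 4 libraries independent biological repeats.

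A gene was detected at a mean of at least 1 TPM. Of 32 lists, those of families follow symbol stems. Listed genes without a match were spe-50, gska-3, ram-4, unc-17, cha-1, hsp-16.49 and pud-2.1 and are not described. The text names the 30 genes of highest mean TPM, the 5 leading genes of each list, the 10 highest and 10 lowest CVs at 100 TPM or more, all yolk, adult collagen, male and reference genes, and list members without a count where under 6 are. The mitochondrial genes are named by their identifiers where the files give no other. Defining tissue markers are named as well, and exceptions are stated where they occur. The members and lists were chosen with earlier results of these data known, and 3 lists (chemoreceptor, mitochondrial genome and ribosomal protein) had their symbol patterns corrected after the identifiers had been seen. Alternatives were other units and totals, thresholds, scalings, filters and each library left out. Sequences are not printed, as no sequence table was used here.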

Additional observations from a re-analysis of the deposited data

Results flagged for a closer look

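With 4 libraries, a value was set apart where its gap to the nearest library, divided by the range, passed Dixon's 95% critical value. Chance alone sets apart about 5% of such groups, and the values of one library are not independent of each other. Of 31 summed shares 5 were set apart, and of 278 gene levels, many of them named for their values, 58 were. The library was DMSO 4 for 56 of these 63 values, 27 of them high and 29 low.

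Among the summed shares, DMSO 4 was low for oocyte and eggshell genes, at 0.957%, for germ granule and meiosis genes, at 0.330%, and for translation factor genes, at 0.865%. It was high for the annular furrow collagens, at 0.00221%. DMSO 2 was high for the genes of coelomocytes and the excretory canal, at 0.0162%.

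Among single genes low in DMSO 4, those of oocytes and embryos stood there at 844 TPM for cpg-2, 228 TPM for mex-5, 143 TPM for oma-1, 208 TPM for oma-2, 523 TPM for pos-1, 203 TPM for rme-2 and 2353 TPM for sip-1. Those of germ granules and germline translation control stood at 421 TPM for car-1, 675 TPM for cgh-1, 290.0 TPM for gld-1, 136 TPM for pgl-1 and 188 TPM for wago-1. Genes of general cell functions, common references among them, stood at 30.5 TPM for ama-1, 257 TPM for tba-1, 477 TPM for tba-2, 35.3 TPM for pmp-3, 4697 TPM for eef-1A.1, 281 TPM for his-72, 1451 TPM for eef-2, 1165 TPM for eef-1G and 748 TPM for eef-1B.1. The other low genes stood at 77.2 TPM for cyp-31A2, 29.7 TPM for fbxc-50, 143 TPM for ifet-1, 25.98 TPM for nhr-23 and 0.418 TPM for plg-1. Among genes high in DMSO 4, the heat-inducible chaperone genes stood at 636 TPM for hsp-16.11, 76.4 TPM for hsp-16.2, 77.1 TPM for hsp-16.41, 467 TPM for hsp-16.48 and 22.5 TPM for hsp-70. The collagens stood at 177 TPM for col-12, 159 TPM for col-3, 48.6 TPM for col-7, 3.89 TPM for dpy-2 and 3.55 TPM for dpy-7. Genes of digestion, defence and lipid binding stood at 340.1 TPM for cpr-4, 5399.9 TPM for far-2, 347 TPM for lys-4 and 825 TPM for spp-2. Ribosomal protein genes stood at 4823 TPM for rpl-29, 3739 TPM for rpl-36.A, 3603 TPM for rpl-38, 3406 TPM for rps-17 and 4037 TPM for rps-25. These do not stand for their list: of its 78 genes 34 were highest and 41 lowest in DMSO 4, where 43.7 and 38.8% of all detected genes were. The other high genes stood at 1488 TPM for F53A9.8, 3567 TPM for Y37E3.8, 259.9 TPM for nlp-36, 1452 TPM for pat-10, 47.7 TPM for sbt-1, 43.6 TPM for srr-4 and 22.4 TPM for srv-1. DMSO 1 was high at 4466 TPM for MTCE.31, 0.00217 TPM for lov-1, 3.77 TPM for myo-2 and 127 TPM for pud-3. DMSO 2 was high at 0.0986 TPM for cwp-3. DMSO 3 was low at 5268 TPM for COX3. The values of lov-1 and cwp-3 each rest on a single count.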

How the results depend on the processing

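Shares of TPM differ from shares of counts, since counts are not divided by transcript length. As a share of counts, yolk genes held 7.58%, major sperm protein genes 0.0496%, other sperm genes 0.0407%, oocyte genes 2.16%, muscle genes 0.928% and cuticle collagen genes 2.07%. Ranked by CPM (counts scaled to library size), 8 of the top 30 genes remained. Detected genes numbered 7976 at 10 TPM or more, 19611 at 0.1 TPM or more and 14546 with at least 10 counts in each library. The median CV was 28.2% with no filter, and ran from 8.02 to 20.1% with 1 library left out, lowest without DMSO 4. The common biological coefficient of variation likewise ran from 0.137 to 0.314. Genes highest in DMSO 4 numbered 2181 at 1.5-fold and 180 at 10 TPM or more, and genes lowest there 1243 and 40. Totals without rRNA or of protein-coding genes moved none of the shares of yolk, sperm, oocyte, muscle or collagen genes by more than their SD. Depth limits the low genes: those at 1 to 3 TPM had a median CV of 34.9%. No paired analysis was possible because a single group is described. The filters over the other 3 libraries and the ranking over DMSO 1 to 3 were chosen after seeing the data.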
